A study of Mus musculus with 2 samples.

Results

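Of 13952 distal accessible regions in the mouse cell line G1E, 585 had a RUNX or a PU.1 motif match near the summit and no GATA or AP-1 match there. G1E is an immature red cell precursor line that lacks Gata1 (labelled as a Gata1- erythroid progenitor, strain C57BL/6J, male, postnatal, age 0 day). There is 1 group of 2 biological replicate libraries made from 50000 cells each, with no second condition and no added agent. ATAC-seq measures where the Tn5 transposase can cut chromatin, and the deposited files list accessible regions in mm10 with a peak signal and a summit. Replicate 1 had 21194 regions and replicate 2 had 22620, which joined to 25799 regions over both lists. A region was called distal when both of its edges lay over 1000 bp from every GENCODE M21 start site and it held none. The strongest summit in a joined region was taken as the centre, and the window of 100 bp to either side had to hold TGTGGTTA or TGTGGTTT (RUNX) or GAGGAAGT (PU.1) no GATA string (GATA with A or T before it and A or G after it) and no AP-1 string (TGACTCA or the variant TGAGTCA), on either strand. Among the 585 regions, 242 had a RUNX match only, 317 a PU.1 match only and 26 had both. No region was chosen by its signal, and a motif match is a stretch of letters, not a measured binding event.

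RUNX proteins bind DNA together with core binding factor beta, and RUNX1 is needed for the first blood stem cells and for platelet-forming megakaryocytes. PU.1, the product of Spi1, is an ETS factor that drives the myeloid and B cell lineages and opposes GATA1, and its level falls as red cells mature. GATA1 is the main activator of red cell genes, and immature precursors without it still carry the related factor GATA2. The promoters of all 8 erythroid progenitor markers checked (Klf1, Tal1, Gfi1b, Zfpm1, Epor, Kit, Lmo2 and Nfe2) had a listed region in both replicates, against 0 of 5 myeloid, 1 of 5 lymphoid (Ebf1) and 0 of 5 hepatocyte markers. Outside these marker sets, Runx1, Cbfb and Spi1 had a region within 1 kb of their outermost 5′ end in both replicates. Runx2, Runx3, Spib and Spic had one in neither. The lists hold no transcript levels, so the loss of Gata1 was not checked here.

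The 11 windows below are shown because the results turn on them: the strongest regions with 1 motif, regions in which both motifs lie close together, regions with repeated matches and regions near blood genes. Each is the full window on the plus strand of mm10, 5′ to 3′, with RUNX and PU.1 matches in capitals; a match on the minus strand appears as TAACCACA or AAACCACA for RUNX and ACTTCCTC for PU.1.
Region upstream of Pak3, chrX:143482956-143483156: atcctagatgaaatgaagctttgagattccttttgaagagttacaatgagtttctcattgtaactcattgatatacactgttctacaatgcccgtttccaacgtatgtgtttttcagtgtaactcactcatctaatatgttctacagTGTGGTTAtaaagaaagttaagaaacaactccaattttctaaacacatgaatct
Esr1 intron, chr10:4787051-4787251: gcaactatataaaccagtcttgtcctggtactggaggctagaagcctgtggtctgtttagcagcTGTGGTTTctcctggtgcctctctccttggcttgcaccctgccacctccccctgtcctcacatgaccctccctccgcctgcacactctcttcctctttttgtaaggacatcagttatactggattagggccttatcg
Dph5 intron, chr3:115902385-115902585: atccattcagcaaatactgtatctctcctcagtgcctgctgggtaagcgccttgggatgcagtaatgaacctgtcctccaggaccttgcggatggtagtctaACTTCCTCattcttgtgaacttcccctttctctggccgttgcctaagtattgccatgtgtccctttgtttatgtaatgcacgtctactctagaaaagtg
Cttn intron, chr7:144447167-144447367: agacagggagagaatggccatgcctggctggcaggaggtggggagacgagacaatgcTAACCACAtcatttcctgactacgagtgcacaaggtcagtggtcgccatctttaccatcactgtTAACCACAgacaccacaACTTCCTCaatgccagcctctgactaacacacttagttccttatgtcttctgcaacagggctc
Gin1 intron, chr1:97781691-97781891: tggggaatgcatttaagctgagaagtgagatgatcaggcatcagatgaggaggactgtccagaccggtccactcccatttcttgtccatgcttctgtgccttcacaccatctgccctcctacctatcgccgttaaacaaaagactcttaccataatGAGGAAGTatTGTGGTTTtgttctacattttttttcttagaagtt
Region upstream of Rgs1, chr1:144283379-144283579: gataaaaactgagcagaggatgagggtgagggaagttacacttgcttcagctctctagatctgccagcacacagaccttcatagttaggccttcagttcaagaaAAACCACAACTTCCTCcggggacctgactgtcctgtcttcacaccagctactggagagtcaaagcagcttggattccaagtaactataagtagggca
Ccnd3 intron, chr17:47508012-47508212: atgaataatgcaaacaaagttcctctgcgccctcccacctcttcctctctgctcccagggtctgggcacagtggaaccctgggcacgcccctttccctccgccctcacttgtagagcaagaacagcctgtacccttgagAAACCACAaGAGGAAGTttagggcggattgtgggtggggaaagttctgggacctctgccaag
Region downstream of the Arrdc3 5′ end, chr13:80933108-80933308: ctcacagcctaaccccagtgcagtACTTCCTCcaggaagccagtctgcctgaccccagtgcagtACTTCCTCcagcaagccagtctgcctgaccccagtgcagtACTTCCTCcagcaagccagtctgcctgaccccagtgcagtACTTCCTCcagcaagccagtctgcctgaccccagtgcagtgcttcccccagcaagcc
Antxr2 intron, chr5:98018163-98018363: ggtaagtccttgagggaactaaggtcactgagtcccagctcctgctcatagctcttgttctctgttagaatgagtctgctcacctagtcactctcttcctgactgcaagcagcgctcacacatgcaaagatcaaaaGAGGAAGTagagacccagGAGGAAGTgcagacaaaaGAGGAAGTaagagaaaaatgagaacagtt
Region upstream of Jak1, chr4:101292123-101292323: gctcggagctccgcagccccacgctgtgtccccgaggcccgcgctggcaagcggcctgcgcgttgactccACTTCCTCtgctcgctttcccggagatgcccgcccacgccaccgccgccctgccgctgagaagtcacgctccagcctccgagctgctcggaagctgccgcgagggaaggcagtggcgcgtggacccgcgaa
Region upstream of Fth1, chr19:9978442-9978642: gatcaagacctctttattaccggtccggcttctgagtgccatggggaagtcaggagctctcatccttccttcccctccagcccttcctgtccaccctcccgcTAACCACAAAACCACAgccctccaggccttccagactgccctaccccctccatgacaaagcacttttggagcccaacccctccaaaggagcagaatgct

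RUNX and PU.1 strings were most frequent at the summits of distal regions, a pattern that was read over all 13952 regions and so does not depend on how the 585 were chosen. Within 50 bp of the summit there were 0.431 RUNX matches per kb of sequence, against 0.139 per kb between 200 and 475 bp away, a ratio of 3.10. PU.1 matches stood at 0.453 per kb within 50 bp and 0.0706 per kb at the greater distance, a ratio of 6.41. The barred motifs showed the same central rise, with ratios of 2.71 for GATA and 4.51 for AP-1. In the 4630 distal regions with neither barred motif near the summit the ratios were 2.68 for RUNX and 6.89 for PU.1. Base composition and the cutting preference of Tn5 also change with distance from a summit, and their part in this was not tested.

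**Figure D1:**
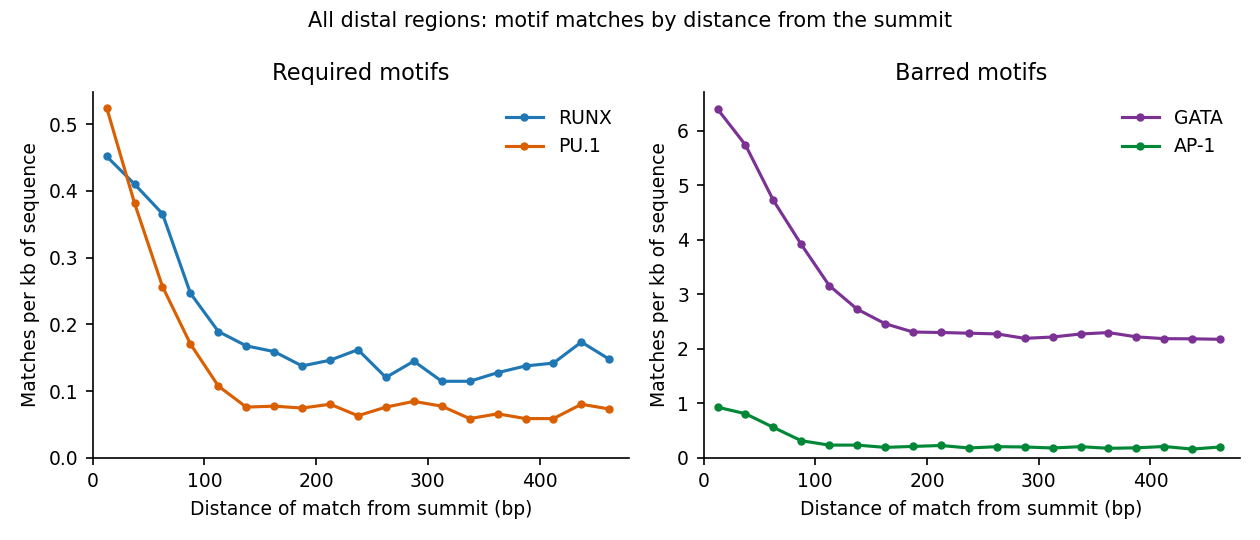
Matches per kb of sequence (y axis) by distance from the summit in bp (x axis, 25 bp bins, both sides and strands) over all 13952 distal regions, with the required motifs on the left and the barred motifs on the right. RUNX falls from 0.431 per kb within 50 bp to 0.139 per kb beyond 200 bp, and PU.1 from 0.453 to 0.0706.

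The rule fixed that a match lay within 100 bp of the summit, so the distances within that window are given as a description. The median distance from the centre of the nearest match to the summit was 33.5 bp over all of them, 30.5 bp for PU.1 in 343 regions and 38.5 bp for RUNX in 268 regions. Over all distal regions with such a match in the window the medians were 31.5 bp for PU.1 and 40.5 bp for RUNX. A PU.1 match lay within 50 bp of the summit in 249 of 343 regions (72.6%), and a RUNX match did so in 162 of 268 (60.4%). Of the 280 RUNX matches, 184 (65.7%) were TGTGGTTT and 96 (34.3%) were TGTGGTTA. Most regions rested on a single match: 298 had 1 PU.1 match and nothing else, and 232 had 1 RUNX match and nothing else.

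The bases just before PU.1 matches also differed from those before matches far from a summit. Published PU.1 sites carry a run of adenines in front of GAGGAAGT, and the rule did not use those positions. Counting back from the match on its own strand, the second base was adenine in 196 of 368 matches (53.3%, exact 95% binomial interval 48.0 to 58.5). In 560 PU.1 matches lying 200 to 490 bp from the summits of distal regions it was adenine in 181 (32.3%, 28.5 to 36.4). The third base back was adenine in 45.1% of matches near the summit (39.9 to 50.4) and in 26.4% of those far away (22.8 to 30.3). PU.1 matches near the summits of GATA regions gave 55.0% and 43.8% at these positions, within the intervals of the 585 regions. For RUNX the largest difference in adenine was at the base directly before the match, which was adenine in 24 of 280 (8.57%, 5.57 to 12.5) near the summit and in 225 of 1123 (20.04%, 17.7 to 22.5) far from it. Near the summits of GATA regions it was adenine in 88 of 671 (13.1%, 10.7 to 15.9), a share above the interval of the 585 regions. These positions were picked after their values were seen, the intervals cover counting error only, and matches in 1 repeat share their sequence.

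**Figure D2:**
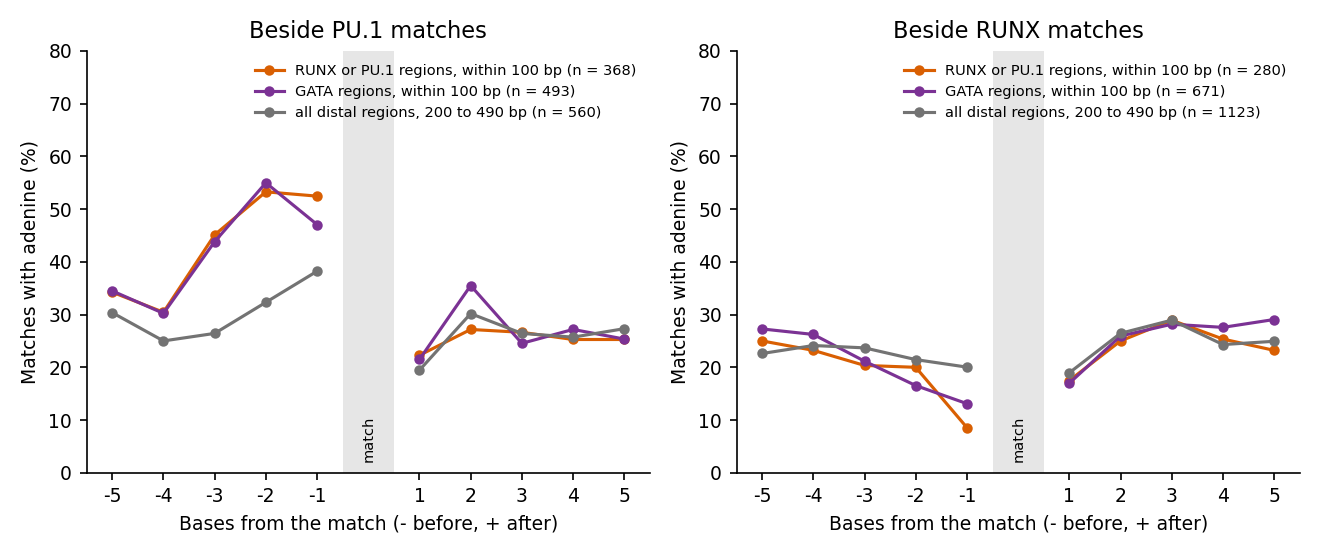
Percent of matches with adenine (y axis) at each of the 5 bases before and after a PU.1 match (left) or RUNX match (right), in the 585 regions, in GATA regions and in distant matches. At the second base before PU.1 the 585 regions stand at 53.3% and GATA regions at 55.0%, both above the 32.3% of distant matches.

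In the authors' lists the 585 regions had a lower median strength than distal regions as a whole, a difference that depended on the motif window. Signal in replicate 1 ran from 2.80 to 35.03 with a median of 7.07 over the 422 regions listed there, and in replicate 2 from 3.41 to 37.2 with a median of 7.87 over 468. These are the authors' own peak values and were not scaled between the libraries, so each region was also placed as a percentile among all regions of its own replicate. The median percentile was 38.0 in replicate 1 and 39.3 in replicate 2, against 41.9 and 41.6 for all distal regions. When the motif rule was applied within 50 bp the medians were 41.9 and 41.6, the same as for all distal regions. With the 100 bp window GATA regions stood higher, at 46.5 and 45.6. The 4045 distal regions with none of the 4 motifs stood lower, at 33.2 and 35.5. AP-1 regions without GATA stood at 35.1 and 39.2, close to the RUNX or PU.1 regions in replicate 2. Median width was 441 bp for GATA regions, 354 bp for RUNX or PU.1 regions, 352 bp for AP-1 regions without GATA and 315 bp for regions with none of the 4.

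Both replicates listed 305 of the 585 regions (52.1%, exact 95% binomial interval 48.0 to 56.3), while 117 were in replicate 1 only and 163 in replicate 2 only. Over all distal regions the share in both was 59.0%. The RUNX or PU.1 regions lay below that background with the 100 bp window, but near it with motifs within 50 bp (58.1%). With the 100 bp window the share was 66.2% (65.2 to 67.2) for GATA regions. It was 53.5% (49.8 to 57.2) for AP-1 regions without GATA and 45.6% (44.0 to 47.1) for regions with none of the 4. Within the 585, it was 53.3% for RUNX only (46.8 to 59.7), 49.5% for PU.1 only (43.9 to 55.2) and 73.1% for the 26 with both (52.2 to 88.4), and the last interval overlaps the first. In each band of mean percentile below the 75th, the shares of GATA regions, RUNX or PU.1 regions and regions with none of the 4 fell in this order. No intervals were computed for the bands, so the smaller differences are not set against counting error. The bands match strength only roughly, because a region in 1 list took its percentile from that list alone. At a mean percentile of 25 to 50, 112 of 207 RUNX or PU.1 regions (54.1%) were in both lists, beside 68.3% of GATA regions and 49.2% of regions with none of the 4, and at 50 to 75 the shares were 84.2% (101 of 120), 90.8% and 76.2%. Below 25 they were 23.0% (49 of 213), 30.4% and 21.6%, and above 75 they were 95.6% (43 of 45), 99.2% and 97.9%. A region missing from one list is not shown to be closed in that replicate, since 155 of the 280 regions in 1 list only (55.4%) overlapped a region of the other replicate's more lenient list. Over all distal regions in 1 list only, that share was 55.1%. In the authors' between-replicate ranking, 338 regions (57.8%) had an irreproducible discovery rate of 0.05 or lower, against 63.5% of all distal regions.

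**Figure D3:**
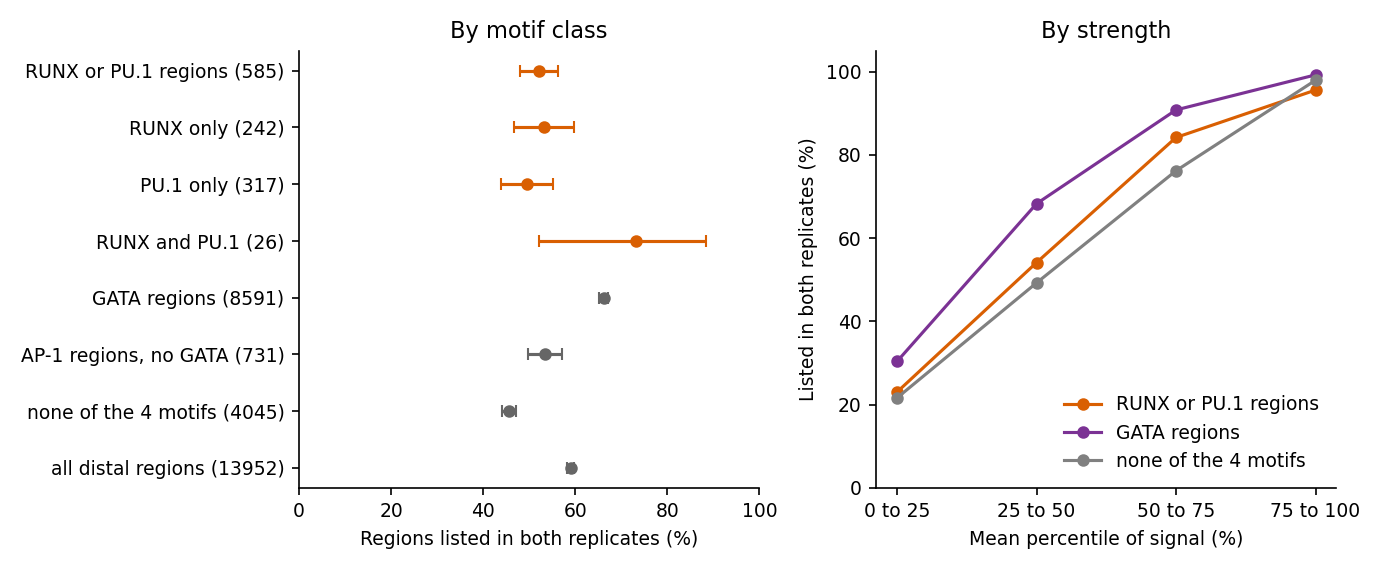
Left: percent of regions listed in both replicates (x axis) by motif class, with the number of regions in brackets and exact 95% binomial intervals as bars. Right: the same percent (y axis) by mean percentile of signal (x axis). RUNX or PU.1 regions (52.1%) lie between GATA regions (66.2%) and regions with none of the 4 motifs (45.6%).

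Where a region was in both lists, the replicates gave it a similar but not identical rank. The percentiles of the 305 regions differed by a median of 11.1 points, and 141 of them (46.2%) were within 10 points. Replicate 1 gave the higher percentile for 126 and replicate 2 for 179. Summits moved by a median of 19 bp between replicates, close to the 21 bp of all distal regions in both lists. At or above the 90th percentile of both lists were 10 of the 305. No such rank figures are given here for all distal regions, so they describe the 305 only.

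**Figure D4:**
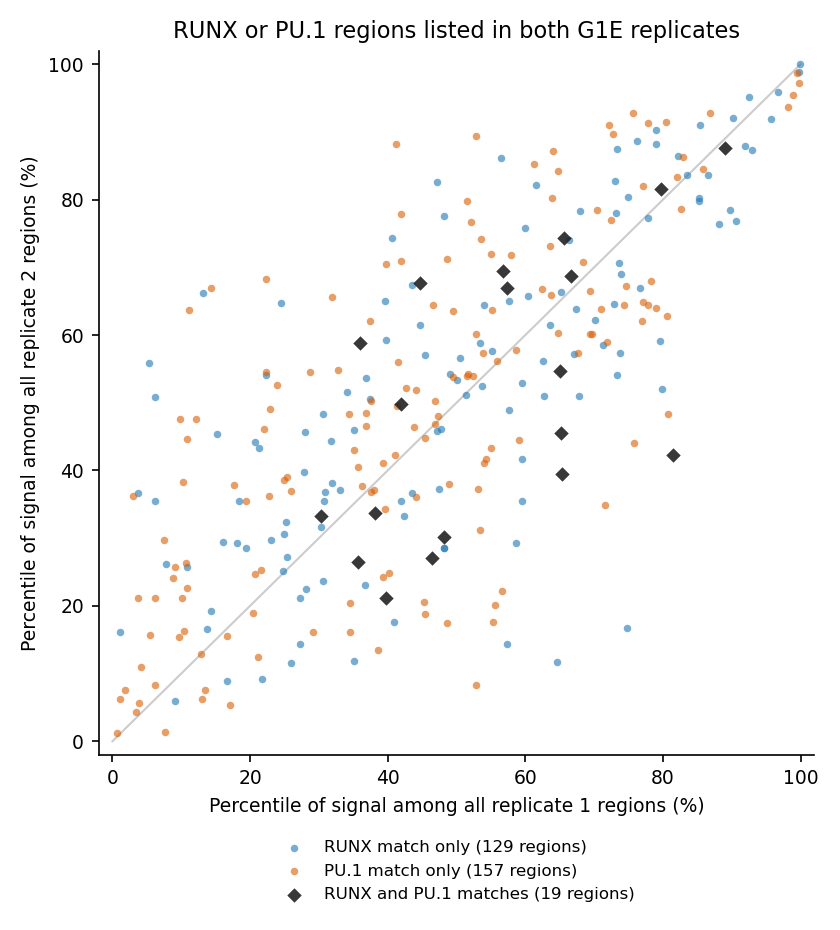
Percentile of signal among all regions of replicate 1 (x axis) and of replicate 2 (y axis) for the 305 regions listed in both, coloured by motif class, with the diagonal as a grey line. Points spread around the diagonal by a median of 11.1 points, and 10 regions lie at or above the 90th percentile of both lists.

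The strongest RUNX-only region lay 35.5 kb upstream of Pak3, a kinase gene best known from neurons, at chrX:143482937-143483173. Its signal was 35.03 in replicate 1 and 37.2 in replicate 2, at the 99.99 percentile of each list. It was only 237 bp wide and 33.3% of its window was soft-masked as repeat. Peak lists cannot show whether reads were wrongly aligned there, and this was not tested. Next came an intron of Esr1, the gene for estrogen receptor alpha, at chr10:4786869-4787497, with 21.2 and 20.04. A region on chromosome 18, 146.0 kb downstream of the 5′ end of Arhgap12, had 16.6 and 17.6. Signals of 14.8 and 17.3 were found in an intron of Gabrr3, a GABA receptor subunit gene (chr16:59459162-59459815), and of 16.0 and 16.0 in an exon of Orai2, which encodes a subunit of store-operated calcium channels (chr5:136149093-136149782). The sixth lay in an intron of the cAMP phosphodiesterase gene Pde4d (chr13:109822157-109822884), with 14.1 and 16.0. All 6 were at or above the 90th percentile in both lists.

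Among PU.1-only regions the strongest by mean percentile was in an intron of Dph5, a gene of diphthamide synthesis on elongation factor 2, at chr3:115902244-115902746. Its signal was 19.3 in replicate 1 and 19.7 in replicate 2, and its PU.1 match began 2 bp from the summit. A region 13.5 kb downstream of the 5′ end of the enamel gene Odaph (chr5:92000781-92001149) had 21.3 and 18.4. Introns of Rsbn1l (chr5:20897393-20898045) and of Nenf, which encodes the secreted protein neudesin (chr1:191312423-191313056), had 18.5 and 17.4 and 17.6 and 16.6. All 4 were above the 93rd percentile in both lists.

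Regions with both motifs were few but mostly in both lists. Their signal ran from 6.47 to 13.8 in replicate 1 and from 3.57 to 14.7 in replicate 2. The strongest lay in an intron shared by Adora3, the adenosine A3 receptor gene, and Tmigd3 (chr3:105892436-105893054), with 13.8 and 14.7. An intron of Cttn, which encodes the actin-binding protein cortactin (chr7:144447091-144447593), held 2 RUNX matches and 1 PU.1 match and had 11.9 and 13.4. The next were introns of Gin1 (9.84 and 12.1), of the calcium release channel gene Itpr1 (9.97 and 11.2), of the calcium sensor gene Stim2 (8.81 and 11.3) and of Cfdp1 (8.88 and 10.9). Replicate 2 gave the higher signal for all 6, and signals are not scaled between the libraries.

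The layout of the pair varied. Between the closest RUNX and PU.1 matches lay 0 to 79 bp, with a median of 20 bp, and 14 of the 26 pairs were 20 bp apart or closer. The matches were on the same strand in 16 pairs and on opposite strands in 10. In the region 34.2 kb upstream of Rgs1, a regulator of G protein signalling in lymphocytes, they touched with no base between, and that region was listed in replicate 2 only with a signal of 7.01. In the Gin1 intron 2 bases separated PU.1 from RUNX on the plus strand. In the intron of Ccnd3, the gene for cyclin D3, which sets the number of divisions of red cell precursors, 1 base separated the pair, and signal was 9.77 in replicate 1 and 8.45 in replicate 2. The Rgs1 and Ccnd3 regions were picked after their layout was seen. Of the 268 distal regions with RUNX and no GATA or AP-1, 26 (9.70%) also had PU.1, beside 7.27% of such regions without RUNX. In GATA regions the order was the other way, with PU.1 in 31 of 651 RUNX regions (4.76%) and in 5.65% of the others. No intervals were computed for these shares, so neither difference is set against counting error.

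**Figure D5:**
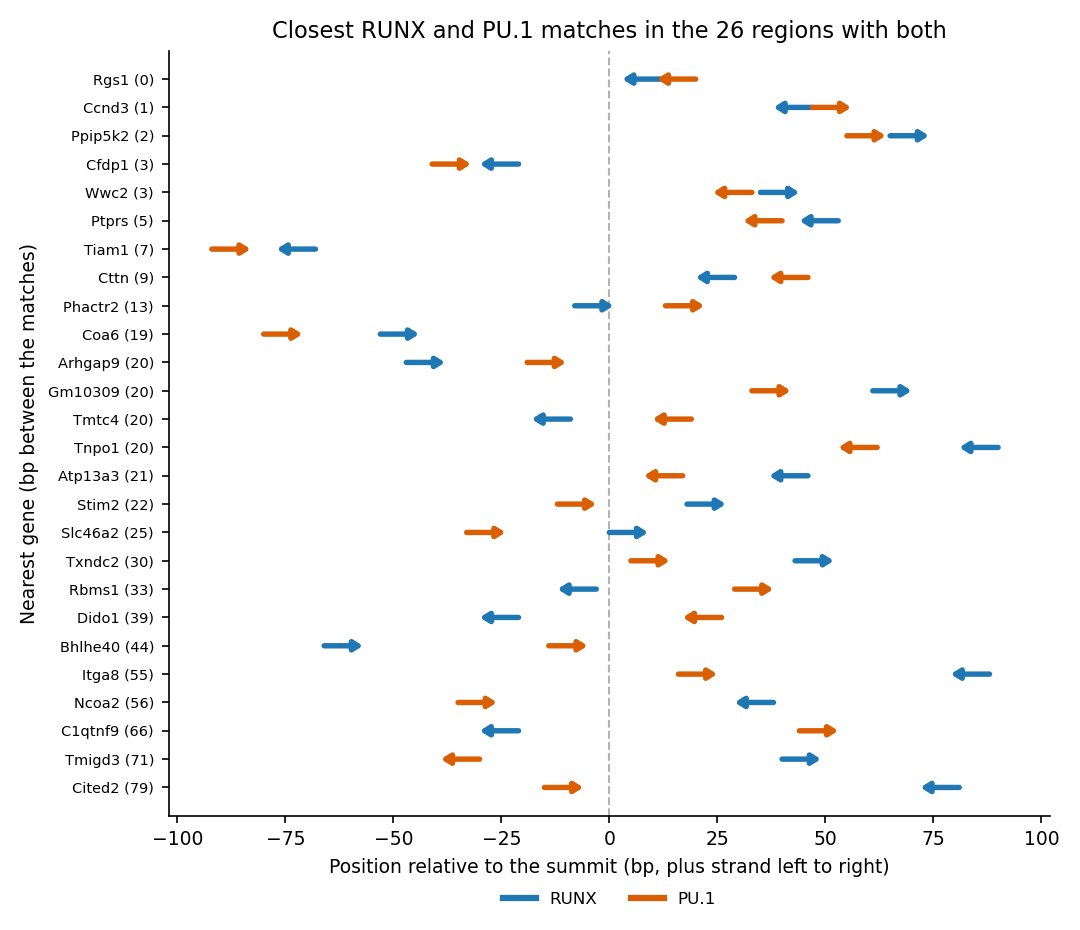
Positions of the closest RUNX match (blue) and PU.1 match (orange) relative to the summit in bp (x axis) in the 26 regions with both, named by the protein-coding gene with the nearest 5′ end (the Gin1 intron appears under Ppip5k2 and the Itpr1 intron under Bhlhe40) and ordered by the bases between the matches. Arrows point along the strand of each match, and the spacing runs from 0 to 79 bp.

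In 5 regions there were 3 or more matches, and in 3 of those regions all were PU.1 matches. A region 49.8 kb from the 5′ end of Arrdc3 (chr13:80933010-80933401) had 4 matches at an even spacing of 40 bp, and its printed window shows the repeated unit. Signal there was 5.83 in replicate 1 and 6.68 in replicate 2, and 42.8% of the window was soft-masked. The intron of the anthrax toxin receptor gene Antxr2 (chr5:98018153-98018500) had 3 matches spaced by 18 bp, with signals of 8.63 and 6.04 and no soft-masked base. An exon of the ribosome assembly gene Wdr12 (chr1:60070636-60071289) had 5 matches spaced by 33, 33, 15 and 66 bp, with signals of 4.09 and 7.53. The other 2 were the Cttn and Cfdp1 introns, each with 2 RUNX matches and 1 PU.1 match.

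The positions of the 585 regions were close to those of distal regions as a whole. Introns held 56.4% of them, intergenic sequence 37.8% and exons 5.81%, against 54.6%, 40.4% and 5.01% of all distal regions. Of the 26 regions with both motifs 80.8% were intronic. The median distance to a start site was 8.93 kb, beside 9.17 kb. The region nearest to the 1 kb limit lay 1019 bp from a start site and had a signal of 3.57 in replicate 2 only, and the nearest one left out lay 994 bp from a start site with 7.72 and 7.87. At 1 kb or less from a start site, 359 of 11847 regions (3.03%) met the motif rule, against 4.19% of distal regions. Median GC content of the window was 50.7%, beside 48.8%. Soft-masked repeats took up 13.4% of the mean window, beside 11.1%, and over 50% of the window in 31 regions (5.30%), of which 23 were PU.1-only, beside 3.43% of all distal regions.

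Strings of some other factors were more or less frequent in the 585 regions than in GATA regions. Strings of KLF factors (CCACACCC, CCCCACCC or CCGCCC), which include the red cell activator KLF1, were in 139 of 585 windows (23.8%), against 13.6% of GATA regions, 24.8% of regions with none of the 4 and 17.6% of all distal regions. CTCF, the insulator protein, had a match in 18 windows (3.08%), beside 5.21% of all distal regions. GATA regions stood at 2.06% and regions with none of the 4 at 12.5%. The ETS string CAGGAAGT, which does not count as a PU.1 match here, was in 8.72%, beside 5.61% of all distal regions, and in 10.7% of the RUNX-only regions. E-boxes of the form CAGATG, bound by TAL1 and its partners, were in 17.6%, beside 20.8% of all distal regions. The share was 22.8% in GATA regions and 17.3% in regions with none of the 4. A composite of joined ETS and RUNX sites (GGATGTGG or GGAAGTGG) was in 14.5%, beside 4.83% of all distal regions, but GGAAGTGG overlaps the PU.1 string and GGATGTGG overlaps the RUNX string, so the rule itself raises this share. Neither MEF2 nor GFI1 had a match in any of the 585 windows, and over all distal regions they were in 0.165% and 0.215%. GATA strings were barred only near the summit, and 171 of the 585 regions (29.2%) had one elsewhere in the region, beside 26.1% of regions with none of the 4.

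No region of the 585 lay within 100 kb of the outermost annotated 5′ end of Runx1, Runx2, Runx3, Cbfb, Spi1, Spib or Spic. Of all protein-coding genes 1566 of 21924 (7.14%) had one within that distance, so a count of 0 of 7 is near the background. Distal regions of other classes were present there, with 9 around Runx1, of which 7 had GATA, and 4 around Spi1, of which 3 had GATA. The nearest of the 585 to Runx1 was a PU.1 region 205.7 kb upstream of that end, with a signal of 6.84 in replicate 1 only.

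Near blood genes the 585 regions were about as frequent as distal regions in general. Of the 585, 15 (2.56%, exact 95% binomial interval 1.44 to 4.19) lay within 50 kb of the 5′ end of a gene of the 10 blood lists, against 2.96% of all distal regions. Seen from the genes, 15 of 220 listed blood genes had such a region within 50 kb (6.82%), against 3.84% of 21924 protein-coding genes. Blood genes more often had a distal region of any class, 164 of 220 (74.5%) beside 44.4%, and among genes with a distal region the shares were 9.15% and 8.64%. No gene of the stem and progenitor (0 of 24), mast cell and basophil (0 of 20), lymphoid (0 of 24), hepatocyte (0 of 19) or neuron (0 of 20) lists had one.

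In the list of RUNX and ETS factor genes, 1 of 20 had such a region, 19.9 kb upstream of Fli1, an ETS factor of megakaryocytes, with a PU.1 match and a signal of 5.73 in replicate 1 only. Among the erythroid factor genes, Mafk, a small Maf partner of NF-E2, had a PU.1 region 39.3 kb downstream of its 5′ end with 6.68 and 9.42. Foxo3, a regulator of late red cell maturation, had a RUNX region in its intron with 5.36 in replicate 2 only. For the hemoglobin, heme and iron list the count was 2 of 24. The iron importer of mitochondria Slc25a37 had an intronic PU.1 region with 4.56 and 5.18. Fth1, the ferritin heavy chain gene, had a region 2.06 kb upstream with 2 RUNX matches end to end, and 6.94 in replicate 1 and 6.46 in replicate 2.

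Among red cell membrane and surface genes the count was 2 of 20: Rhag, of the Rh complex, had a PU.1 region 21.05 kb upstream, in an intron of Crisp2, with 4.96 in replicate 1 only, and Cd44, the hyaluronan receptor gene, an intronic RUNX region with 6.52 in replicate 2 only. The megakaryocyte and platelet list gave 3 of 20. Selp, the gene for P-selectin, had an intronic RUNX region with 6.08 and 10.6, Nbeal2, needed for platelet alpha granules, a PU.1 region 22.7 kb upstream, in an intron of Ccdc12, with 6.90 and 7.67, and Treml1, a platelet receptor gene, a PU.1 region with 7.96 in replicate 1 only. In the granulocyte and macrophage list, 1 of 24 had one, a PU.1 region 44.7 kb upstream of the myeloperoxidase gene Mpo with 4.39 in replicate 2 only. Among the cytokine signalling genes, the kinase gene Jak1 had a PU.1 region 26.9 kb upstream with 8.45 in replicate 1 and 7.63 in replicate 2, and the interferon receptor gene Ifngr2 one 24.8 kb upstream with 6.47 in replicate 2 only. Of the 15 regions near listed genes, 6 were in both lists.

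Clusters of such regions near the 5′ end of 1 gene were rare. Of the 842 protein-coding genes with one within 50 kb, 815 were counted with 1, 26 with 2 and 1 with 3. Among the 26, Ddit3 and Dpep2 each had the same region counted 2 times, so the count of 26 is too high. The gene with 3 was Kif21b, which encodes a kinesin motor, and all lay in its introns. A RUNX region at chr1:136139940-136140592 had 8.14 in replicate 1 and 9.24 in replicate 2, and a second RUNX region at chr1:136135003-136135466 had 7.22 and 9.91. A PU.1 region downstream of both (chr1:136141594-136141821) had 4.68 in replicate 1 only. Since the genes with 2 regions tied for the next places, no others were picked by this count. Counted instead by the gene whose body held the region, Rere had 4, and Kif21b and Sik3 had 3 each.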

How the data were processed

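ATAC-seq of 2 G1E libraries was analysed from peak lists in mm10. The authors deposited, per replicate, regions with a peak signal value, a −log10 p-value and a summit offset, thresholded by irreproducible discovery rate. A deposited between-replicate ranking gives a −log10 rate score per region, pooled over both libraries. Neither the labels nor the file notes used here name an aligner, a peak caller or a read depth, so signal precision is unknown. Strength was therefore compared mainly as a percentile within each list. The strongest summit of a joined region was picked by unscaled signal over both lists. Picking it by percentile also gave 585 regions. The labels call the samples biological replicates and do not say how they were grown apart.

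Overlapping or touching regions were joined. Start sites, exons and genes came from GENCODE M21 and sequence from the GRCm38.p6 RefSeq genome, which is the mm10 assembly. Exact strings were searched on both strands, and the scanner was tested on simulated windows with planted RUNX strings only. Counts, shares and medians were compared with those of all distal regions. With 1 group no comparison between conditions and no test over regions was made. Binomial intervals are exact (Clopper-Pearson, 95%) and cover counting error only. Python 3 with scipy was used. Regions named singly were the 6 strongest with RUNX, 4 with PU.1 and 6 with both that were in both lists, those near list genes or factor genes, those with 3 or more matches, and genes with most regions. The motif rule, gene lists and other strings were chosen with earlier results of these data known. Settings tried were the summit choice, window, start sites, peak lists, strength, motif strings, overlap, leaving out a replicate and, after seeing the data, repeat content and the subsets of PU.1 matches. A few regions near list genes are not reported here, so not every region that the rule names is described.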

Additional observations from a re-analysis of the deposited data

How the results depend on the processing

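The 585 regions became 1376 with the lenient lists, 1443 with shorter motif strings and 209 among the stronger 50% of regions, and from 423 to 472 with 1 replicate left out. The share in both lists (52.1%) was 58.1% with motifs within 50 bp, near the 59.0% of all distal regions. It was 42.7% with the lenient lists and 83.3% among the stronger 50%, and the share over all distal regions under these settings is not given here. In other distal regions too the share rose with strength, from 27.0% below a mean percentile of 25 to 98.9% above 75. The median percentile in replicate 1 (38.0) was 41.9 with motifs within 50 bp, 39.3 both over 2000 bp from start sites and with protein-coding start sites only, 40.5 with the lenient lists, 64.0 among the stronger 50% and 34.4 with the shorter strings, and in replicate 2 (39.3) it was 41.6 with motifs within 50 bp, 64.5 among the stronger 50% and 36.3 with the shorter strings. The median distance of the match to the summit (33.5 bp) was 20.5 bp within 50 bp, 38.5 bp within 150 bp, 36.5 bp with the lenient lists, 32.5 bp both with the summit chosen by percentile and with the shorter strings, and 33.0 to 33.5 bp with 1 replicate left out. A window of another size sets the range of the distance, and keeping the stronger regions raises the percentiles, both by construction. For the other shifts the cause was not tested. The shares in introns (53.2% to 56.9%) and near blood genes (1.89% to 3.26%) stayed inside their intervals under every alternative run, as did the KLF share and the adenine share before PU.1 under those run for them. No paired analysis was possible because the study has 1 group. Depth is unknown, so a region absent from a list may be accessible but below its threshold.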
